A study of Homo sapiens with 18 samples.

Results

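The 10 genes described here encode machinery of ER-associated degradation (ERAD), the route by which misfolded proteins leave the endoplasmic reticulum (ER) and are destroyed: SYVN1, SEL1L, HERPUD1, DERL1, DERL2, DERL3, EDEM1, EDEM2, EDEM3 and OS9. They were taken by symbol from a table of 57736 Ensembl genes, and all 10 were found. All 10 were among the 17317 genes that passed a filter on low counts and were tested. Messenger RNA was measured in A1847, a human high-grade serous ovarian cancer cell line, in 3 genotypes, each given vehicle or tunicamycin.

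In the lumen of the ER, the EDEM proteins trim mannose from the glycans of proteins that fail to fold, and the lectin OS9 reads the trimmed glycans. Both hand their clients to SEL1L, the scaffold of the membrane ubiquitin ligase SYVN1, also known as HRD1. The derlins are membrane proteins that help clients cross the membrane, HERPUD1 is a short-lived component of the same ligase complex, and the ATPase p97 (VCP) pulls ubiquitinated clients into the cytosol for the proteasome. Many ERAD genes belong to the unfolded protein response, in which the spliced form of XBP1, ATF6, and PERK with ATF4 act as separate arms. Tunicamycin blocks the attachment of N-glycans and is a standard trigger of that response. CARM1 is an arginine methyltransferase, and the study asked how far it and XBP1 are needed for the genes that ER stress switches on.

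The groups are called WT, koCARM1 and shXBP1 in the labels, with ctr for vehicle and TM for 5 μg/ml tunicamycin, both for 8 h. WT cells had unmodified CARM1 and XBP1, and the labels do not say whether they carried a control vector. In koCARM1 cells CARM1 was targeted with a lentiviral CRISPR vector, and it is not stated whether they were a single clone. In shXBP1 cells XBP1 was knocked down with a short hairpin RNA, and CARM1 was unmodified. Each of the 6 groups had 3 libraries, 18 in all, with 9367462 to 13917212 counts per library. The labels do not say whether replicates were separate cultures, although the study describes its experiments in general as independent ones. P-values measure the spread between these libraries, which would be technical if they were not. Comparisons of koCARM1 and of shXBP1 with WT share the WT libraries.

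Before the results, the libraries were compared with their labels. CARM1 had 162 ± 2.69 CPM (counts relative to the TMM-scaled library total, SD, n = 3) in vehicle-treated WT cells and 74.2 ± 3.11 CPM (SD, n = 3) in koCARM1 cells with vehicle. Counts of 3′ ends outside the edited part of the gene do not check the edit. XBP1 had 45.9 ± 4.50 CPM in vehicle-treated WT cells and 25.4 ± 1.25 CPM in shXBP1 cells (SD, n = 3 each), and 150 ± 3.02 against 71.6 ± 2.35 CPM with tunicamycin. CARM1 was also called higher in shXBP1 than in WT cells, with vehicle (log2 fold change 0.22, edgeR adjusted p = 0.0170) and with tunicamycin (0.37, edgeR adjusted p = 0.000177). XBP1 was called lower in vehicle-treated koCARM1 than in WT cells, at 33.9 ± 6.49 CPM (SD, n = 3, −0.47, edgeR adjusted p = 0.00133). With tunicamycin XBP1 was not called in koCARM1 cells (−0.06, edgeR adjusted p = 0.244). The koCARM1 libraries stood apart from the other 12 libraries (Pearson r of log2 CPM across genes 0.730 to 0.775 over 72 pairs, against 0.961 to 0.987 over the 36 pairs of WT and shXBP1 libraries). Markers of the labelled tissue went with genotype. PAX8, which marks the epithelium from which such tumours arise, had 0 to 1 counts in vehicle-treated WT libraries and 497 to 840 in vehicle-treated koCARM1 libraries, while KRT19, another epithelial marker, went from 5 to 16 counts to 0. Of 12 epithelial markers, 6 reached 10 counts in WT, 9 in koCARM1 and 5 in shXBP1 cells, with summed levels of 312 to 491, 2265 to 2781 and 132 to 216 CPM, and SOX17 was at 0 or 1 count in every library. Of 6 fibroblast markers, 6, 4 and 6 reached 10 counts, with summed levels of 898 to 1118, 187 to 501 and 725 to 1057 CPM. Single fibroblast markers went opposite ways between vehicle-treated WT and koCARM1 cells, COL1A2 from a mean of 823 to 0.247 CPM and COL1A1 from 15.0 to 479 CPM. The loss of CARM1 and any other difference between the koCARM1 and WT cells cannot be told apart in this design, and every koCARM1 value below carries that limit. In bulk RNA, fewer cells of a type and less RNA per cell cannot be told apart either.

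In WT cells, all 10 genes rose with tunicamycin, by 0.97 to 4.45 on the log2 scale (median 2.24). The derlin gene DERL3 rose most, 21.8-fold, and its relative DERL1 least, 1.96-fold. Of all genes tested, 22.0% were called higher and 19.9% lower in this comparison at a false discovery rate of 5% (edgeR quasi-likelihood test, Benjamini-Hochberg adjustment over all genes tested), and the median change over all genes was 0. For each of the 10 genes, the 3 tunicamycin libraries lay above the 3 vehicle libraries. The share of all genes tested whose libraries separated in this way was not counted, in this or the later comparisons.

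The 3 genes of the ligase complex rose between 7.53- and 12.4-fold. SEL1L (ENSG00000071537, chromosome 14: 81937891 to 82000197 on the minus strand of GRCh37) had 33.3, 33.7 and 31.0 CPM with vehicle and 414, 379 and 411 CPM with tunicamycin. This was a 12.4-fold difference (log2 fold change 3.63 ± 0.0651 SE, edgeR adjusted p = 6.46e-16), and it placed the scaffold at rank 98 of the 17317 genes by log2 fold change. HERPUD1 (ENSG00000051108, chromosome 16: 56966054 to 56978776, plus strand) went from 22.9, 26.0 and 28.5 CPM to 320, 303 and 317 CPM. Its rise was of much the same size (3.61 ± 0.0742 SE, edgeR adjusted p = 2.49e-15), at rank 103. The ligase itself, SYVN1 (ENSG00000162298, chromosome 11: 64889252 to 64902003, minus strand), went from 18.3, 18.6 and 19.9 CPM to 144, 139 and 141 CPM. It rose 7.53-fold (2.91 ± 0.0687 SE, edgeR adjusted p = 1.12e-14). SYVN1 shares 398 bases with the ribosomal gene FAU on the same strand, which had 6283 to 9890 counts per library, and how reads in the shared bases were divided is not given in the sources used here.

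The 3 derlins differed most among themselves. DERL3 (ENSG00000099958, chromosome 22: 24176690 to 24181315, minus strand) was at 4.72, 5.08 and 4.35 CPM with vehicle and at 92.5, 104 and 110 CPM with tunicamycin. That change (4.45 ± 0.103 SE, edgeR adjusted p = 1.03e-14) was at rank 58 among all genes. DERL3 overlaps SMARCB1 on the opposite strand over 3507 bases, and since the use of strand in counting is not stated, reads of the 2 genes cannot be told apart there. SMARCB1 had 325 to 605 counts per library. Also on opposite strands, SYVN1 overlaps MRPL49 (5189 bases, 149 to 310 counts) and DERL2 overlaps MIS12 (527 bases, 201 to 1261 counts). So do DERL1 and TBC1D31 (335 bases, 232 to 555 counts) and OS9 and AGAP2 (4582 bases, 2 to 21 counts). On the same strand, OS9 overlaps AGAP2-AS1 (2072 bases, 0 to 208 counts). HERPUD1 overlaps the noncoding genes ENSG00000261114 (699 bases, 2 to 112 counts) and ENSG00000261270 (1065 bases, 15 to 45 counts) there. DERL2 (ENSG00000072849, chromosome 17: 5374574 to 5390131, minus strand) rose 3.44-fold, from 48.4, 47.2 and 48.7 CPM to 176, 156 and 161 CPM (1.78 ± 0.0644 SE, edgeR adjusted p = 2.10e-12). DERL1 (ENSG00000136986, chromosome 8: 124025410 to 124054542, minus strand) rose from 46.3, 43.7 and 49.6 CPM to 90.0, 87.8 and 93.2 CPM (0.97 ± 0.0688 SE, edgeR adjusted p = 8.93e-09), so that even this smallest change left a clear gap between the groups.

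Among the genes that handle glycans, EDEM1 (ENSG00000134109, chromosome 3: 5229331 to 5261643, plus strand) went from 5.18, 5.53 and 8.04 CPM to 29.9, 28.1 and 30.8 CPM (2.24 ± 0.140 SE, edgeR adjusted p = 1.75e-09). EDEM2 (ENSG00000088298, chromosome 20: 33703167 to 33735139, minus strand) went from 2.94, 2.28 and 3.28 CPM to 10.1, 15.7 and 14.2 CPM (2.24 ± 0.196 SE, edgeR adjusted p = 1.08e-07). Their standard errors were the widest of the 10. EDEM3 (ENSG00000116406, chromosome 1: 184659371 to 184724041, minus strand) rose 2.89-fold, from 51.8, 58.4 and 55.0 CPM to 155, 156 and 163 CPM (1.53 ± 0.0630 SE, edgeR adjusted p = 1.01e-11). The lectin gene OS9 (ENSG00000135506, chromosome 12: 58087624 to 58122125, plus strand) rose 3.47-fold, from 49.9, 51.5 and 49.1 CPM to 167, 177 and 174 CPM (1.79 ± 0.0598 SE, edgeR adjusted p = 8.06e-13). In all 3 of the EDEM genes and in OS9 the groups were separated without overlap. Only the 3′ ends of the mRNA were sequenced, so levels are compared here within a gene and not between genes.

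**Figure D1:**
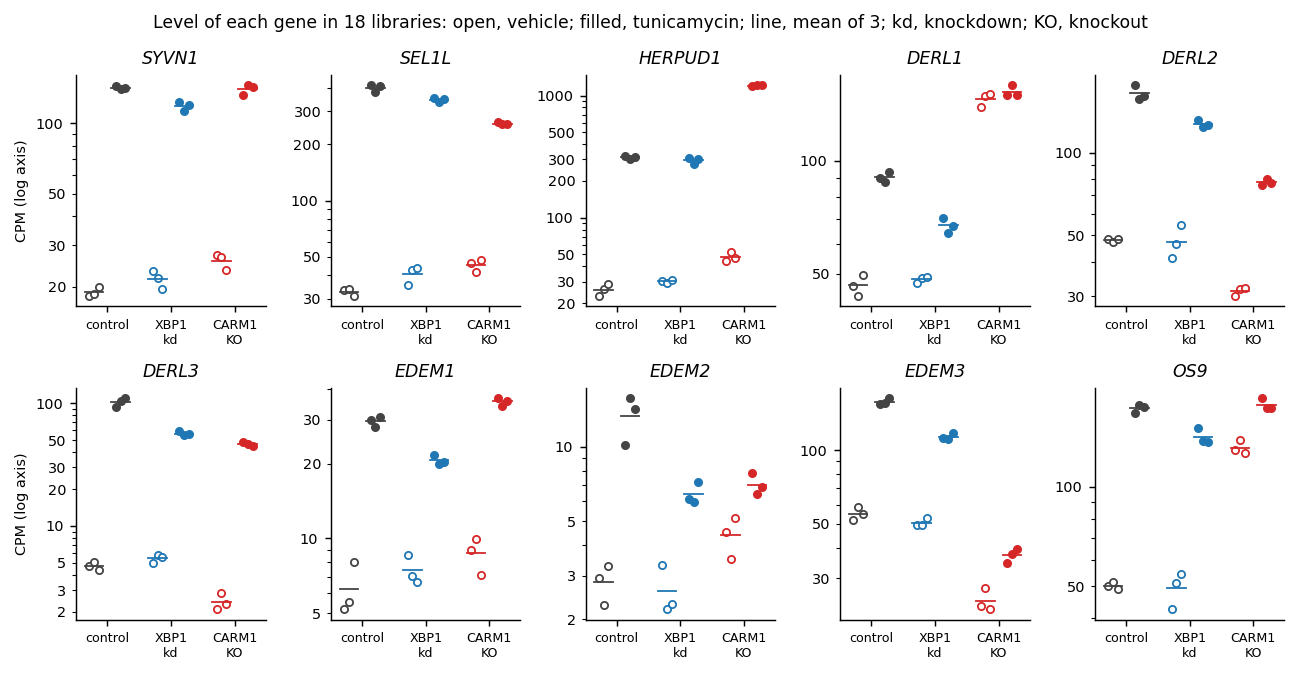
Level of each of the 10 ERAD genes in CPM (log axis, 1 panel per gene) in the 18 libraries, with open points for vehicle, filled points for tunicamycin and a line at the mean of 3. The HERPUD1 panel has its highest points in tunicamycin-treated koCARM1 cells at 1193 to 1221 CPM, and the DERL1 panel shows koCARM1 libraries at 139 to 159 CPM under both treatments.

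The DNA before the transcription start of these genes was searched for letters tied to the unfolded protein response, and 3 stretches are printed because they belong to the ligase complex. RefSeq gave a promoter for 8 of the 10 genes (none for DERL1 and DERL3), as a window of 250 bases before and 50 after the start. Each stretch below is the 250 bases before the RefSeq start (sequence from GRCh38.p14, placed in GRCh37 by exact match), 5′ to 3′ on the strand of the gene. Capitals mark CCACG or its reverse complement CGTGG and, in HERPUD1 alone, also ATTGG and TTGCATCA.
HERPUD1, chr16:56965804-56966053, plus strand: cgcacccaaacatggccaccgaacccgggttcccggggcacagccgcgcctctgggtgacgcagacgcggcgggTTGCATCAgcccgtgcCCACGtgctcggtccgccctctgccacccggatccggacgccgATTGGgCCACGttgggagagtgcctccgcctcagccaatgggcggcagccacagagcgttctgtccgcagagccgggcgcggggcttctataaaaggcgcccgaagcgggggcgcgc
SEL1L, chr14:82000198-82000447, minus strand: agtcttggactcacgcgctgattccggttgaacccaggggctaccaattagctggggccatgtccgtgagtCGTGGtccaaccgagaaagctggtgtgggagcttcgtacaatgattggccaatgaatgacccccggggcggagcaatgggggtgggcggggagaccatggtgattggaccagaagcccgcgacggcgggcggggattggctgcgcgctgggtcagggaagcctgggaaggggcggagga
SYVN1, chr11:64901991-64902240, minus strand: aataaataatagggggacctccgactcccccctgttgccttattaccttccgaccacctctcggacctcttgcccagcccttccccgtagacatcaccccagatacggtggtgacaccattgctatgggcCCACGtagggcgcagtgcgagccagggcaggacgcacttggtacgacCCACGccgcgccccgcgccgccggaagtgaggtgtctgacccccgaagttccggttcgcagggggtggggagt
The HERPUD1 window was the only one of the 8 to hold the ERSE-II letters, ATTGG and CCACG with 1 base between them, at −117 to −107 from the start, against 0.0541% of 35116 RefSeq promoters. It was also the only one with the C/EBP-ATF response element TGATGCAA, on the reverse strand at −176 to −169, against 0.866% of all promoters. ERSE-II is an element read by ATF6 and by spliced XBP1 with NF-Y, and the C/EBP-ATF element is read by ATF4. The full ERSE, CCAAT and CCACG with 9 bases between them, was in 0 of the 8 windows (0.0769% of all), and the UPRE letters TGACGTGG were in 0 of 8 (0.729%). The core ACGTCA was also in 0 of 8 (7.98%). CCACG alone was in 6 of 8, those of SYVN1, SEL1L, HERPUD1, EDEM1, EDEM3 and OS9, against 38.1% of all promoters. Both strands were searched, the ERSE-II match contains a CCACG match, and a match is a description of letters and not of binding.

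With XBP1 knocked down, none of the 10 genes was called different from WT cells with vehicle, and 9 were lower with tunicamycin. Under vehicle, 0 of the 10 were called higher and 0 lower than in WT cells by edgeR, where 2.07% of all genes were called higher and 3.03% lower. DESeq2 also called 0, and at an unadjusted p under 0.05 there were 2, SEL1L and HERPUD1. The shares of all genes called by DESeq2 or lying under that unadjusted p were not counted. SEL1L came nearest, with 35.2, 42.6 and 43.9 CPM in shXBP1 cells, all above the WT libraries (0.31 ± 0.0886 SE, edgeR adjusted p = 0.0635). It was called when replicate 1 of the vehicle-treated shXBP1 cells was left out (0.40, edgeR adjusted p = 0.0170), when no filter was used and when all libraries shared one fit. The other 9 differences under vehicle lay between −0.13 and 0.23 on the log2 scale.

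Under tunicamycin, 9 of the 10 genes were lower in shXBP1 than in WT cells and 0 were higher, with a median log2 fold change of −0.39. The background in this comparison was 8.55% of all genes called lower and 6.99% called higher, with a median near 0. EDEM2 had 6.14, 5.97 and 7.20 CPM in shXBP1 cells, against 10.1 to 15.7 CPM in WT cells, and was 2.07-fold lower (−1.05 ± 0.170 SE, edgeR adjusted p = 0.000532). DERL3 had 59.0, 54.8 and 55.7 CPM, against 92.5 to 110 CPM, and was 1.80-fold lower (−0.85 ± 0.0699 SE, edgeR adjusted p = 5.74e-07). EDEM1 had 21.7, 19.9 and 20.4 CPM and was 1.43-fold lower (−0.51 ± 0.0880 SE, edgeR adjusted p = 0.000832). In these 3 genes every shXBP1 library lay below every WT library.

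Smaller differences of the same sign were called for EDEM3 (112, 112 and 118 CPM, −0.47 ± 0.0518 SE, edgeR adjusted p = 1.37e-05) and DERL1 (70.5, 64.4 and 67.2 CPM, −0.42 ± 0.0602 SE, edgeR adjusted p = 0.000179). DERL2 had 131, 124 and 126 CPM (−0.37 ± 0.0565 SE, edgeR adjusted p = 0.000325), and OS9 had 150, 137 and 137 CPM (−0.28 ± 0.0550 SE, edgeR adjusted p = 0.00218). The ligase and its scaffold had smaller estimates. SYVN1 had 123, 113 and 119 CPM (−0.25 ± 0.0532 SE, edgeR adjusted p = 0.00399), and SEL1L had 353, 334 and 347 CPM (−0.22 ± 0.0478 SE, edgeR adjusted p = 0.00542). HERPUD1 was the exception, with 306, 275 and 301 CPM against 303 to 320 CPM in WT cells, so that the groups overlapped (−0.09 ± 0.0509 SE, edgeR adjusted p = 0.287).

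**Figure D2:**
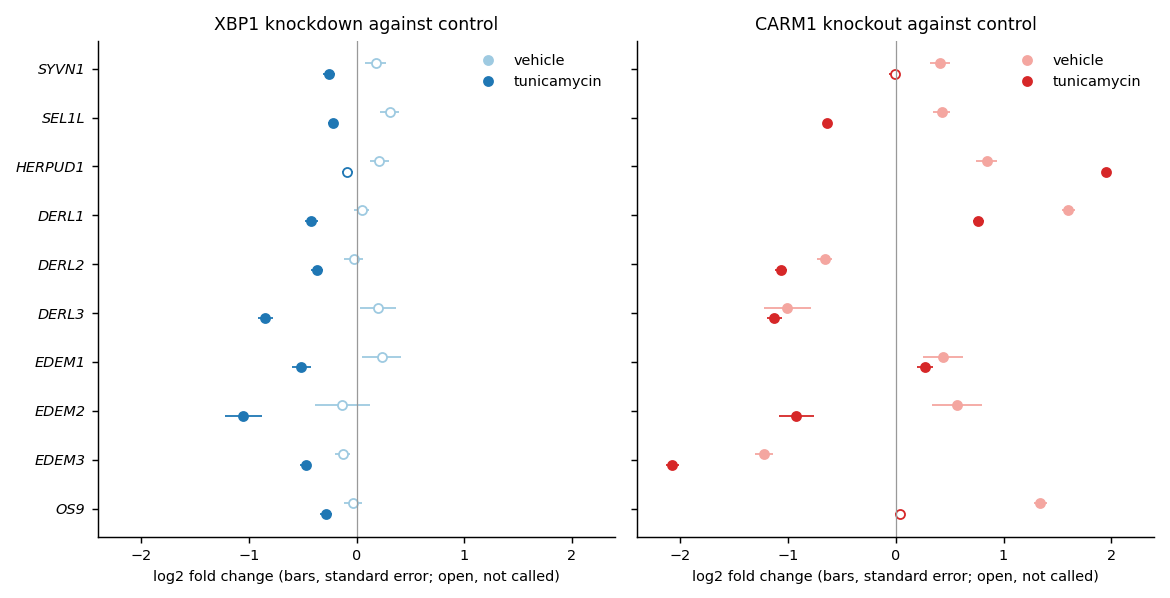
Log2 fold change of each gene against WT cells (horizontal axis, bars 1 standard error), for shXBP1 on the left and koCARM1 on the right, in paler points under vehicle and darker points under tunicamycin, with open points where the gene was not called. In shXBP1 cells every point lies left of 0 under tunicamycin, while in koCARM1 cells the points spread from −2.08 (EDEM3) to 1.95 (HERPUD1).

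All 10 genes still rose with tunicamycin in shXBP1 cells, by 0.47 to 3.36 (median 1.49), where 19.2% of all genes were called higher and 19.0% lower. The rise of DERL3 was 10.3-fold there, from 4.97, 5.82 and 5.55 CPM, and that of HERPUD1 9.73-fold, from 30.3, 29.3 and 30.6 CPM. SEL1L rose 8.43-fold, SYVN1 5.48-fold from 23.3, 21.9 and 19.5 CPM, and OS9 2.85-fold from 42.6, 51.0 and 54.4 CPM. DERL2 rose 2.66-fold from 41.3, 46.4 and 54.4 CPM, and EDEM1 2.77-fold from 8.58, 7.02 and 6.67 CPM. EDEM2 rose 2.45-fold from 3.31, 2.20 and 2.32 CPM, EDEM3 2.24-fold from 49.5, 49.5 and 52.7 CPM, and DERL1 1.38-fold from 47.3, 48.8 and 49.1 CPM. In each of the 10 the tunicamycin libraries lay above the vehicle libraries.

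Whether the response itself was smaller was tested as the interaction of genotype and treatment, the response in shXBP1 cells minus that in WT cells. This difference was below 0 for all 10 genes (median −0.47) and was called for 6, DERL1, DERL3, EDEM1, EDEM3, SEL1L and SYVN1, against 1.67% of all genes called lower and 0.364% higher. DERL3 had the largest of the called differences (−1.08 ± 0.151 SE, edgeR adjusted p = 0.000379). SEL1L differed by −0.55 ± 0.0954 (SE, edgeR adjusted p = 0.00255), DERL1 by −0.49 ± 0.0880 (SE, edgeR adjusted p = 0.00315) and SYVN1 by −0.45 ± 0.0970 (SE, edgeR adjusted p = 0.0145). The calls of EDEM1 (−0.76 ± 0.195 SE, edgeR adjusted p = 0.0456) and EDEM3 (−0.36 ± 0.0801 SE, edgeR adjusted p = 0.0172) depended on which libraries entered, and that of EDEM1 was also lost with library totals (−0.73, edgeR adjusted p = 0.0634). For EDEM1 the call was lost on leaving out any 1 of 9 of the 12 libraries, all but replicate 3 of vehicle-treated WT, replicate 3 of vehicle-treated shXBP1 and replicate 1 of tunicamycin-treated shXBP1 cells (−0.80 to −0.65, edgeR adjusted p 0.0501 to 0.128). For EDEM3 it was lost without replicate 1 of vehicle-treated or replicate 3 of tunicamycin-treated WT cells, or replicate 3 of vehicle-treated or replicate 2 of tunicamycin-treated shXBP1 cells (−0.35 to −0.32, edgeR adjusted p 0.0519 to 0.0630).

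EDEM2, whose estimate was −0.94 ± 0.301 (SE, edgeR adjusted p = 0.132), did not pass the test. The same held for DERL2 (−0.36 ± 0.106 SE, edgeR adjusted p = 0.0920), HERPUD1 (−0.32 ± 0.0944 SE, edgeR adjusted p = 0.0931) and OS9 (−0.28 ± 0.0993 SE, edgeR adjusted p = 0.192). Without replicate 1 of the vehicle-treated shXBP1 cells DERL2 (−0.45, edgeR adjusted p = 0.0174) and OS9 (−0.37, edgeR adjusted p = 0.0264) passed it, and without replicate 3 of the vehicle-treated WT cells HERPUD1 did (−0.40, edgeR adjusted p = 0.0218). DESeq2 called DERL2 (−0.36, DESeq2 adjusted p = 0.0389) and HERPUD1 (−0.31, DESeq2 adjusted p = 0.0456), and edgeR with no filter called DERL2 (−0.33, edgeR adjusted p = 0.0262).

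Under vehicle, 7 of the 10 genes were higher and 3 lower in koCARM1 than in WT cells, where 37.5% of all genes were called higher and 36.9% lower. Most of the genes tested were therefore called in this comparison. DERL1 was at 139, 149 and 151 CPM with vehicle, against 43.7 to 49.6 CPM in WT cells, 3.04-fold higher (1.60 ± 0.0622 SE, edgeR adjusted p = 2.13e-12). OS9 was at 129, 138 and 126 CPM, 2.54-fold higher (1.34 ± 0.0574 SE, edgeR adjusted p = 7.25e-12). HERPUD1 was at 44.4, 52.7 and 46.4 CPM, 1.79-fold higher (0.84 ± 0.0936 SE, edgeR adjusted p = 7.45e-07). In these 3 genes no koCARM1 library reached down to the WT libraries.

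EDEM3, in contrast, was at 23.1, 27.3 and 22.4 CPM, 2.33-fold lower than in WT cells (−1.22 ± 0.0859 SE, edgeR adjusted p = 3.27e-09). DERL3 was at 2.10, 2.85 and 2.29 CPM (−1.01 ± 0.215 SE, edgeR adjusted p = 0.000585), and DERL2 at 30.1, 31.9 and 32.2 CPM (−0.66 ± 0.0703 SE, edgeR adjusted p = 4.47e-07). All 3 were below WT without overlap. SYVN1, at 27.3, 26.8 and 23.5 CPM (0.41 ± 0.0935 SE, edgeR adjusted p = 0.000956), and SEL1L, at 46.5, 41.4 and 48.2 CPM (0.43 ± 0.0792 SE, edgeR adjusted p = 0.000167), were both higher than in WT cells.

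EDEM1 (9.01, 9.98 and 7.10 CPM, 0.44 ± 0.187 SE, edgeR adjusted p = 0.0469) overlapped the WT libraries, and EDEM2 was at 4.51, 3.52 and 5.15 CPM (0.57 ± 0.231 SE, edgeR adjusted p = 0.0361). Their calls were lost when library totals replaced TMM or when DESeq2 was used. EDEM1 also lost its call without replicate 1 or 2 of either group (0.33 to 0.41, edgeR adjusted p 0.117 to 0.193). EDEM2 lost it without replicate 1 or 3 of the koCARM1 or replicate 2 of the WT libraries (0.45 to 0.54, edgeR adjusted p 0.0985 to 0.134).

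The position of a gene went along with its direction in some cases. Of the 43 other tested genes that start within 5 Mb of DERL1 on chromosome 8, 30 were higher and 5 lower in vehicle-treated koCARM1 than in WT cells, with a median log2 fold change of 1.10. Of the 46 within 5 Mb of EDEM3 on chromosome 1, 25 were lower and 10 higher, with a median of −0.90. The 56 neighbours of HERPUD1 had a median of 0.52, the 234 of SYVN1 0.46, and the 120 of DERL3 −0.41, each on the side of the gene itself. Around SEL1L the 24 neighbours had a median of −0.59, opposite to SEL1L, while those of DERL2 (194), OS9 (151), EDEM2 (96) and EDEM1 (46) lay between 0.01 and 0.27. Under tunicamycin the medians were 1.19 around DERL1 and −0.84 around EDEM3. Those around HERPUD1 (0.68), EDEM1 (0.32), DERL3 (−0.35) and SEL1L (−0.37) were also on the side of the gene itself. Around DERL2 (0.24) and EDEM2 (0.31) the medians were opposite to the gene. SYVN1 and OS9, with medians of 0.47 and 0.06 around them, were not called under tunicamycin. The part of these neighbourhoods in the values of the 10 genes was not tested.

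**Figure D3:**
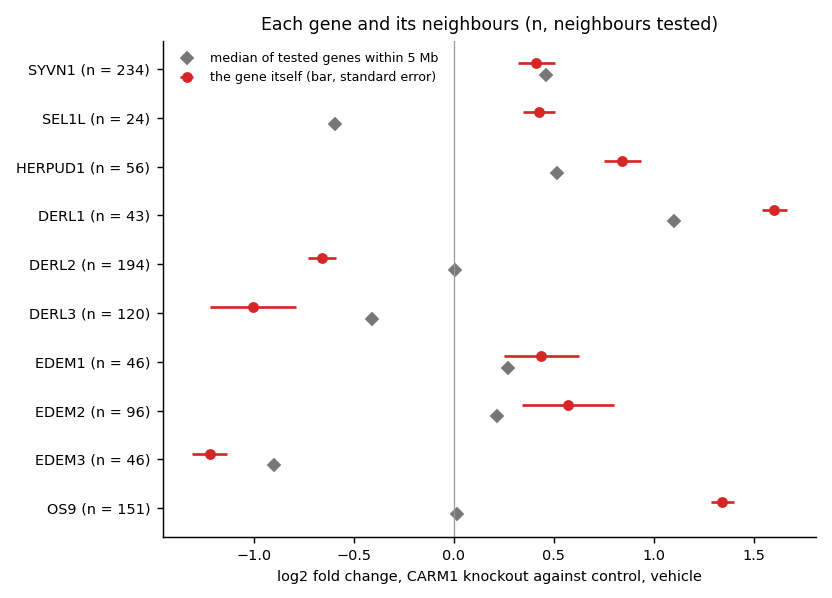
Log2 fold change of each gene between vehicle-treated koCARM1 and WT cells (red points, bars 1 standard error) beside the median over the tested genes that start within 5 Mb of it (grey diamonds, their number in brackets). The gene and its neighbours lie far to the right of 0 for DERL1 and far to the left for EDEM3, and on opposite sides for SEL1L.

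Under tunicamycin, 3 of the 10 genes were higher in koCARM1 than in WT cells, HERPUD1, DERL1 and EDEM1, and 5 were lower, SEL1L, DERL2, DERL3, EDEM2 and EDEM3. Of all genes, 38.4% were called higher and 36.8% lower. HERPUD1 had 1193, 1221 and 1212 CPM, 3.88-fold above WT cells (1.95 ± 0.0393 SE, edgeR adjusted p = 2.23e-15). EDEM3 had 34.5, 37.7 and 39.6 CPM, 4.22-fold below (−2.08 ± 0.0603 SE, edgeR adjusted p = 1.47e-13). These were the highest and the lowest of the 10 differences, and the groups did not overlap in either gene.

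DERL2, at 76.2, 80.4 and 77.7 CPM, was 2.09-fold lower (−1.07 ± 0.0557 SE, edgeR adjusted p = 1.51e-10), and DERL3, at 48.1, 46.6 and 44.8 CPM, 2.18-fold lower (−1.13 ± 0.0691 SE, edgeR adjusted p = 9.85e-10). EDEM2 was at 7.81, 6.43 and 6.83 CPM (−0.92 ± 0.163 SE, edgeR adjusted p = 0.000118), and SEL1L at 262, 255 and 255 CPM (−0.63 ± 0.0445 SE, edgeR adjusted p = 4.79e-09). SEL1L and EDEM2 were thus above WT cells with vehicle and below them with tunicamycin. The EDEM2 call with vehicle was lost with library totals, with DESeq2 and without some single libraries. DERL1, at 150, 159 and 150 CPM, remained higher than in WT cells (0.77 ± 0.0507 SE, edgeR adjusted p = 2.47e-09), and EDEM1, at 36.6, 34.3 and 35.8 CPM, was slightly higher (0.27 ± 0.0739 SE, edgeR adjusted p = 0.00389).

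SYVN1, at 131, 145 and 143 CPM (−0.01 ± 0.0511 SE, edgeR adjusted p = 0.881), and OS9, at 185, 173 and 173 CPM (0.04 ± 0.0477 SE, edgeR adjusted p = 0.451), overlapped the WT libraries and were not called. Scaling by library totals alone moved the median of all genes in the 2 comparisons of koCARM1 with WT by −0.170 with vehicle and −0.165 with tunicamycin. On that scale SYVN1 (−0.17, edgeR adjusted p = 0.00718) and OS9 (−0.12, edgeR adjusted p = 0.0271) were called lower under tunicamycin and EDEM1 lost its call (0.11, edgeR adjusted p = 0.206), which made 2 genes higher and 7 lower. The shares of all genes called higher and lower on that scale were not counted.

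Within koCARM1 cells, 9 of the 10 genes rose with tunicamycin, with a median of 1.70 over the 10, against 20.6% of all genes called higher and 18.8% lower. HERPUD1 rose 25.9-fold (4.70 ± 0.0464 SE, edgeR adjusted p = 1.58e-25), at rank 16 of 17317. DERL3 rose 19.7-fold (4.30 ± 0.119 SE, edgeR adjusted p = 9.73e-18), at rank 26. SEL1L rose 5.84-fold, SYVN1 5.51-fold, EDEM1 4.13-fold and DERL2 2.55-fold.

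At the lower end, EDEM2 rose 1.65-fold (0.73 ± 0.175 SE, edgeR adjusted p = 0.00203), EDEM3 1.57-fold (0.65 ± 0.0855 SE, edgeR adjusted p = 2.07e-06) and OS9 1.38-fold (0.46 ± 0.0438 SE, edgeR adjusted p = 1.46e-08). DERL1 was the gene that did not pass the test, and its vehicle and tunicamycin libraries overlapped (0.10 ± 0.0445 SE, edgeR adjusted p = 0.0701).

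**Figure D4:**
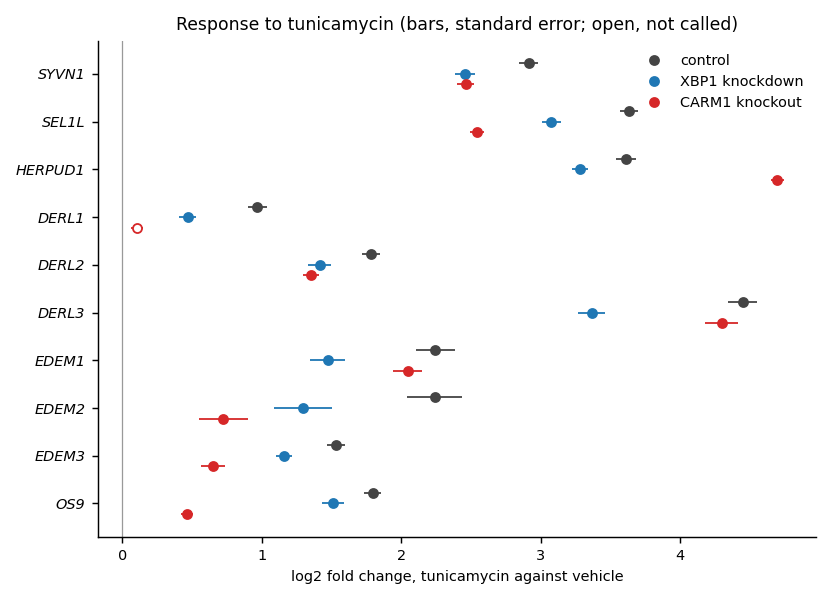
Response of each gene to tunicamycin as log2 fold change against vehicle (horizontal axis, bars 1 standard error), in WT (dark), shXBP1 (blue) and koCARM1 (red) cells, with an open point where the gene was not called. In 9 of the 10 genes the WT point lies farthest to the right, and in HERPUD1 the koCARM1 point does, at 4.70.

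The response in koCARM1 cells was called smaller than in WT cells for 7 of the 10 genes and larger for 1, HERPUD1. Of all genes, 12.4% were called smaller and 10.5% larger. HERPUD1 responded more by 1.07 ± 0.0921 on the log2 scale (SE, edgeR adjusted p = 4.35e-08). EDEM2 had the lowest difference, −1.53 ± 0.282 (SE, edgeR adjusted p = 0.000418), and OS9 the next, −1.35 ± 0.0729 (SE, edgeR adjusted p = 8.05e-11). SEL1L differed by −1.11 ± 0.0837 (SE, edgeR adjusted p = 6.92e-09), EDEM3 by −0.90 ± 0.105 (SE, edgeR adjusted p = 2.23e-06) and DERL1 by −0.88 ± 0.0803 (SE, edgeR adjusted p = 8.97e-08). SYVN1 (−0.47 ± 0.0949 SE, edgeR adjusted p = 0.000997) and DERL2 (−0.45 ± 0.0847 SE, edgeR adjusted p = 0.000522) moved less. For DERL3 (−0.17 ± 0.200 SE, edgeR adjusted p = 0.612) and EDEM1 (−0.21 ± 0.187 SE, edgeR adjusted p = 0.470) no difference was detectable. OS9 and DERL1, both with a smaller response, were the members with the highest vehicle levels relative to WT cells, and with tunicamycin DERL1 was above WT cells and OS9 was not called.

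Both modified genotypes were compared with the same WT libraries, so their responses were also set against each other without WT. In this comparison, koCARM1 minus shXBP1, 3 of the 10 genes were called higher and 4 lower, against 9.63% and 11.4% of all genes. HERPUD1 responded more in koCARM1 cells by 1.37 ± 0.0806 (SE, edgeR adjusted p = 4.07e-10), DERL3 by 0.89 ± 0.169 (SE, edgeR adjusted p = 0.000750) and EDEM1 by 0.53 ± 0.164 (SE, edgeR adjusted p = 0.0255). The EDEM1 call was lost without replicate 1 of tunicamycin-treated or replicate 3 of vehicle-treated koCARM1 cells, or replicate 1 of vehicle-treated shXBP1 cells (0.42 to 0.51, edgeR adjusted p 0.0502 to 0.0918).

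OS9 responded less in koCARM1 than in shXBP1 cells (−1.09 ± 0.0956 SE, edgeR adjusted p = 9.71e-08), as did SEL1L (−0.58 ± 0.0917 SE, edgeR adjusted p = 0.000132), EDEM3 (−0.56 ± 0.102 SE, edgeR adjusted p = 0.000523) and DERL1 (−0.41 ± 0.0732 SE, edgeR adjusted p = 0.000407). SYVN1 (−0.04 ± 0.102 SE, edgeR adjusted p = 0.873), DERL2 (−0.11 ± 0.107 SE, edgeR adjusted p = 0.553) and EDEM2 (−0.62 ± 0.275 SE, edgeR adjusted p = 0.127) were not called, and EDEM2 was called without replicate 1 of vehicle-treated shXBP1 cells (−0.82, edgeR adjusted p = 0.0479). Between the modified genotypes, DERL3 had its smaller response in shXBP1 cells, OS9 in koCARM1 cells, and HERPUD1 its larger response in koCARM1 cells.

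**Figure D5:**
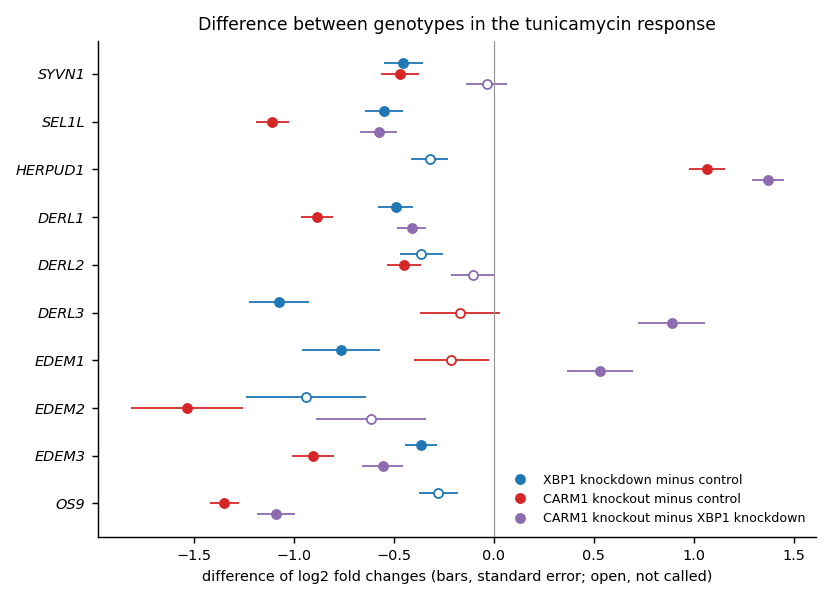
Difference between genotypes in the response to tunicamycin (horizontal axis, difference of log2 fold changes, bars 1 standard error), for shXBP1 minus WT (blue), koCARM1 minus WT (red) and koCARM1 minus shXBP1 (purple), with open points where the difference was not called. The blue points all lie left of 0, and HERPUD1 is the one gene whose red point lies right of it.

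The wider ERAD pathway was described with 74 other genes in 3 lists written from general knowledge. These lists, like the 10 genes, were chosen with earlier results of these data known. In WT cells, 39 of the 74 rose with tunicamycin, 12 fell and 23 were not called, beside 22.0% of all genes higher and 19.9% lower, and their median was 0.28, against 2.24 for the 10 genes. Of the 13 genes listed under lumenal recognition, which include the cytosolic NGLY1 and FBXO2, 10 rose and 0 fell (median 1.02). Of the 30 membrane ligases, conjugating enzymes and adaptors, 12 rose and 7 fell (median 0.07). Of the 31 genes of p97 extraction and hand-over to the proteasome, 17 rose and 5 fell (median 0.29).

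Several of these genes changed as much as the main 10. The ER co-chaperone gene DNAJB9 rose from 6.65 to 8.40 CPM to 99.9 to 108 CPM in WT cells (3.82 ± 0.0902 SE, edgeR adjusted p = 1.12e-14), the BiP-associated SDF2L1 by 2.86 and the lectin gene ERLEC1 by 2.14. SELENOK (3.14) and SELENOS (2.26), selenoproteins that bind p97, rose with VCP itself (1.27 ± 0.0551 SE, edgeR adjusted p = 1.95e-11). Among membrane components, the conjugating enzyme gene UBE2J1 rose by 1.40 and the rhomboid-family genes RHBDD1 and RHBDD2 by 1.29 and 0.99. The glycoprotein sensor UGGT1 (0.68) and the deglycosylating enzyme NGLY1 (0.28) rose least among the called genes of the lumenal recognition list. UBL4A (−1.62) and the ligase genes TRIM13 (−0.95) and RNF103 (−0.56) fell.

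Under tunicamycin, shXBP1 cells had 18 of the 74 lower than WT cells, 8 higher and 48 not called (median −0.04), and koCARM1 cells had 31 lower, 32 higher and 11 not called (median 0.03). Of all genes, 8.55% were called lower and 6.99% higher in shXBP1 cells, and 36.8% lower and 38.4% higher in koCARM1 cells. The count of 8 became 2 to 5 on leaving out any 1 of the 6 libraries compared. ERLEC1 was lower in both genotypes (koCARM1 −1.65 ± 0.0482 SE and shXBP1 −0.85 ± 0.0490 SE), as were DNAJB9 (−1.13 and −0.64), VCP (−1.32 and −0.35), UBE4B (−1.84 and −0.28) and FBXO2 (−3.08 and −1.01), while UBL4A was higher in both (1.72 and 0.39). FBXO2, an F-box protein that recognises glycans, did not pass the test for tunicamycin in WT cells (0.13 ± 0.118 SE, edgeR adjusted p = 0.407).

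Under vehicle, 36 of the 74 were higher and 26 lower in koCARM1 cells, and 2 were higher and 4 lower in shXBP1 cells, beside 37.5% and 36.9% of all genes in koCARM1 and 2.07% and 3.03% in shXBP1 cells. The shXBP1 counts became 1 higher without any of 5 of the 6 libraries, all but replicate 3 of the WT cells, and 2 lower without replicate 2 of the WT cells. The response of these genes was smaller than in WT cells for 21 and larger for 6 in koCARM1 cells, and smaller for 8 and larger for 1 in shXBP1 cells, beside 12.4% and 10.5% of all genes in koCARM1 and 1.67% and 0.364% in shXBP1 cells. The count of 6 became 11 to 13 without any 1 WT library except replicate 3 with tunicamycin, and the count of 1 became 0 or 2 without 10 of the 12 libraries, all but replicate 1 of each shXBP1 group. Set against shXBP1, the response in koCARM1 cells was larger for 7 of the 74 and smaller for 18 (9.63% and 11.4% of all genes), and the 7 became 13 without replicate 3 of vehicle-treated shXBP1 cells. Tunicamycin raised 33 and lowered 12 of them in koCARM1 cells, and raised 35 and lowered 14 in shXBP1 cells, beside 20.6% and 18.8% of all genes in koCARM1 and 19.2% and 19.0% in shXBP1 cells.

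The genes whose levels followed each of the 10 most closely were ranked by Pearson r of log2 CPM over the 18 libraries, among the 9515 genes whose log2 CPM averaged 3 or more. The libraries share 6 groups, so r mainly ranks the likeness of group levels and is given without a p. SEL1L was followed by WARS1 (0.997) and MTHFD2 (0.996), and SYVN1 by DNAJC3 (0.994) and ATF4 (0.992). HERPUD1 was followed by CCDC174 (0.994) and HSP90B1 (0.994). Among derlins, DERL1 was nearest to RTCA (0.994) and MCUR1 (0.991), DERL2 to PJA2 (0.997) and CRELD2 (0.992), and DERL3 to CDC6 (0.997) and HYOU1 (0.995). EDEM1 was nearest to SURF4 (0.991) and GFPT1 (0.983), EDEM3 to ALG12 (0.991) and ALDH6A1 (0.989), and OS9 to CRY1 (0.989) and MED19 (0.988). EDEM2, with the fewest counts, had the loosest partners, WFS1 (0.959) and UTP14C (0.950).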

How the data were processed

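mRNA of A1847 cells was measured in 18 libraries of 3 genotypes with vehicle or tunicamycin. Per the labels, libraries were made from 3′ ends and read once over 75 nt. With bowtie2 the authors aligned to hg19, and the deposited values are RSEM expected counts for Ensembl genes, whole numbers that were not normalized. The submitters' processing notes list RSEM 1.2.3 and DESeq2, while the paper's methods give a different RSEM version. The Ensembl release and the use of strand are not given in the sources used here. A symbol could be matched to 55501 genes, and gene positions are those of GRCh37.

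The tools were edgeR 4.0.16, DESeq2 1.42.0 and limma 3.58.1, run in R 4.3.3. The edgeR steps were filterByExpr (minimum count 10, over all libraries), TMM, and quasi-likelihood F tests on the compared groups alone, or on 4 groups for interactions, in 10 comparisons. P-values were adjusted by Benjamini-Hochberg over the 17317 genes tested and called at 0.05. CPM values used TMM factors, and log2 CPM a prior count of 2. The smallest exact permutation p for 3 against 3 libraries is 0.1, so none is given. Between replicates, chi-square per degree of freedom was 1.84 to 6.89 over 18 pairs (genes with at least 20 counts), so precision was taken from the replicates. Same-numbered replicates did not deviate together.

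The members and lists were chosen with earlier results of these data known. Named beside them were CARM1 and XBP1, and of each list of other ERAD genes the 3 highest and 2 lowest changes among those called for tunicamycin in WT cells. Genes called in both modified genotypes against WT under tunicamycin, in the same direction and with a log2 size of at least 1 in either, were added, as were the 2 genes nearest to each member. Of the genes so named, 1 is not reported here. Alternatives were library totals, DESeq2's size factors, DESeq2, a joint fit of the 18 libraries, a replicate block, a stricter filter (10 counts in every library) or none, and leaving out 1 library at a time. On simulated data with 200 changed genes among 17317, 2 draws, edgeR recovered 98% of 2-fold changes for tunicamycin in WT cells (9.59 to 11.6% of calls false) and 92 to 95% for the interaction of koCARM1 with treatment (5.80 to 8.57% false). The changed genes were drawn only from those above a floor of mean CPM, so recovery below it was not tested. Far fewer genes changed in the simulation than were called in the same comparisons of the data. Protein sequences were not compared here.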

Additional observations from a re-analysis of the deposited data

Results flagged for a closer look

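The response to tunicamycin differed between genotypes, by the test of the interaction in edgeR at an adjusted p under 0.05, in 21 values of the 10 genes. Between koCARM1 and WT cells there were 8, all on the log2 scale: HERPUD1 at 1.07, SYVN1 at −0.47, SEL1L at −1.11, DERL1 at −0.88, DERL2 at −0.45, EDEM2 at −1.53, EDEM3 at −0.90 and OS9 at −1.35. Between shXBP1 and WT cells there were 6, with SYVN1 at −0.45, SEL1L at −0.55, DERL1 at −0.49, DERL3 at −1.08, EDEM1 at −0.76 and EDEM3 at −0.36. Between koCARM1 and shXBP1 cells there were 7, with HERPUD1 at 1.37, DERL3 at 0.89, EDEM1 at 0.53, SEL1L at −0.58, DERL1 at −0.41, EDEM3 at −0.56 and OS9 at −1.09. With 3 libraries per group, no group was large enough for a check for single outlying libraries.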

How the results depend on the processing

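Counts of called members were within 1.5 times of those reported under each alternative in each comparison, except members higher in vehicle-treated shXBP1 cells, where 0 became 1 (SEL1L) with no filter and with all libraries in one fit, and 0 to 1 with 1 library left out. Counts of the 74 other ERAD genes moved more. Those higher in vehicle-treated shXBP1 cells went from 2 to 1 with library totals, DESeq2 or the replicate block (1 to 2 with 1 library left out), and those lower went from 4 to 2 to 5 with 1 library left out. Those higher in tunicamycin-treated shXBP1 cells went from 8 to 2 to 5 with 1 library left out. Those with a larger response in koCARM1 than in WT cells went from 6 to 12 with library totals and 13 with no filter or with 10 counts in every library (5 to 13 with 1 library left out). Those with a larger response in shXBP1 than in WT cells went from 1 to 2 with library totals, DESeq2 or no filter (0 to 2 with 1 library left out), and to 0 with the replicate block. Those with a larger response in koCARM1 than in shXBP1 cells went from 7 to 12 with no filter and 11 with 10 counts in every library (6 to 13 with 1 library left out). The cause of these moves was not tested.

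Signs turned for 5 values whose reported size was at most 0.04. SYVN1 in koCARM1 against WT cells under tunicamycin was 0.0165 with DESeq2 size factors, 0.0164 with DESeq2, 0.00356 with no filter and 0.0434 with 10 counts in every library, and −0.0397 to 0.0350 with 1 library left out. OS9 there was −0.12 with library totals. In vehicle-treated shXBP1 cells with 1 library left out, DERL2 was −0.136 to 0.0633 and OS9 −0.101 to 0.0673. The SYVN1 response in koCARM1 minus that in shXBP1 cells was 0.0193 with no filter, 0.00613 with 10 counts in every library and −0.0946 to 0.0793 with 1 library left out.

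Replicate numbers are shared by the groups, but the deviations of same-numbered libraries correlated at −0.051 to 0.045 over 45 pairs, 0 of them over 0.1. No pairing by number was detected in this way. Because this r is taken over all genes tested, with their counting noise, it cannot exclude a shared culture or batch. With a replicate block, EDEM1 lost its call in vehicle-treated koCARM1 cells (0.45, edgeR adjusted p = 0.0575) and in the response of shXBP1 cells (−0.77, edgeR adjusted p = 0.0636), and no other member call changed. EDEM2, DERL3 and EDEM1 have the fewest counts, which limits their precision.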
